A study of Mus musculus with 2 samples.

Results

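Wide DNase footprints shared by both libraries of mouse gastrocnemius, the large calf muscle, were described by their sequence, their place in the genome and the genes beside them. A DNase footprint is a short stretch inside open chromatin where DNase I cut less often than in the flanking bases. The members were chosen by width and recurrence alone: entries of 25 bp or wider in 1 library that overlapped an entry of 25 bp or wider in the other by at least 1 bp, merged where they overlapped. This gave 8265 wide shared footprints, built from 8267 entries of replicate 1 and 8265 entries of replicate 2, out of 389171 footprint entries in all (155037 and 234134). The comparison set held 19437 narrow shared footprints, found in the same way from entries of 7 to 12 bp.

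Both libraries came from 1 group: male mice of the strain B6CASTF1/J, an F1 hybrid, aged 36 days, with DNase-seq of nuclei from whole gastrocnemius. The labels give 2 biological replicates described as separate males, although both carry 1 donor identifier, so the spread between them may be technical in part. There is no second condition, and nuclei of every cell type in the tissue were read together. How reads from the CAST alleles were placed on the mm10 reference is not given in the sources used here. Open chromatin lay within 500 bp of a start site in both libraries for 5 of 10 skeletal muscle markers (Acta1, Ckm, Mylpf, Ryr1 and Myod1, but not Myh1, Myh2, Myh4, Tnnt3 or Myog), for 3 of 3 fibroblast markers, 1 of 3 endothelial markers, 0 of 5 blood markers, 0 of 2 liver markers and 0 of 2 neuronal markers.

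A sequence-specific transcription factor that stays on its site shields the bases it touches, and the width of the footprint grows with the stretch of DNA covered. CTCF, the insulator protein that stops cohesin and shapes chromatin loops, reads a long motif with a row of zinc fingers. NRF1, CREB/ATF, SP and KLF, ETS, NFY and RFX factors are known for binding close to the start sites of broadly expressed genes. RNA polymerase III genes, such as those for tRNA, are bound by TFIIIC inside the gene and by TFIIIB just upstream of it.

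The sequences below carry the main groups of wide shared footprints, each 5′ to 3′ on the named strand of mm10 with 10 bases either side of the footprint. They show how far a footprint reaches past the motif it holds. Capitals mark the motif match. In the extended CTCF site the first capital stretch is an upstream module and the second is the CTCF motif, and in the tRNA gene the 2 capital stretches are 2 separate wide footprints.

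CTCF compact, promoter of Copg1, chr6:87887704-87887752, plus strand: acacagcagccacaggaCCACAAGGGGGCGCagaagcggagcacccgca

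CTCF extended, intron of Vps37c, chr19:10709505-10709572, minus strand: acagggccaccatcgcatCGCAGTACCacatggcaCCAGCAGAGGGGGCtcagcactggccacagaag

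NRF1, promoter of Nup50, chr15:84923241-84923292, plus strand: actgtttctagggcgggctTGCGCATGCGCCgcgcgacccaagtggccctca

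CRE, promoter of Gtf3c1, chr7:125707785-125707844, plus strand: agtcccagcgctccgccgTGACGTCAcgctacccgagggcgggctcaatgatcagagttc

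GC box, promoter of Nup107, chr10:117792849-117792902, plus strand: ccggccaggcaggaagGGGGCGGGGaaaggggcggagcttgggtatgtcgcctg

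NF1 full site, intergenic near Tfap4, chr16:4541990-4542045, plus strand: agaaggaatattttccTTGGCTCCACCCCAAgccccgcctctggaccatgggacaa

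REST, intron of Xkr6, chr14:63681669-63681718, plus strand: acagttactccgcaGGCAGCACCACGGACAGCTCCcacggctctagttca

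tRNA gene n-TStga3, chr10:63429476-63429620, minus strand: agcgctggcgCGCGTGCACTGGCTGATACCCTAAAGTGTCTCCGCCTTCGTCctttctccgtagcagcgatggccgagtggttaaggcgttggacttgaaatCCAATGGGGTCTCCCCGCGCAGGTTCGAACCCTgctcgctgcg

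Width and recurrence chose the members and are given as a description. The merged wide footprints were 25 to 79 bp wide, with a median of 35 bp (quartiles 31 and 41), and covered 300039 bases. The entries behind them had a median width of 29 bp in replicate 1 and 33 bp in replicate 2, and the replicate 2 entry was the wider one in 70.4% of pairs. Both edges lay within 5 bp of each other in 67.0% of pairs and were identical in 4.86%. The median distance between the replicates was 2 bp at the left edge and 2 bp at the right. In replicate 1, 69.5% of 11895 wide entries had a wide partner and 94.0% overlapped a footprint of any width in replicate 2. In replicate 2, 38.1% of 21717 wide entries had a wide partner and 88.8% overlapped a footprint of any width. Narrow entries had a narrow partner in 19.1% of cases in replicate 1 and 12.4% in replicate 2. At the limit, entries of exactly 25 bp had a wide partner in 52.5% (replicate 1) and 18.5% (replicate 2), and entries of exactly 24 bp overlapped a wide entry in 44.7% and 14.9%. The CTCF motif, described below, was in 15.9% and 11.6% of the 25 bp entries and in 15.1% and 10% of the 24 bp entries, so there was no step at the limit itself.

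Promoters, which are here the 500 bp either side of a protein-coding start site, held 3644 wide shared footprints, 44.1% (95% interval 43 to 45.2). The share was 39.9% (39.2 to 40.6) for narrow shared footprints and 45.8% (45.4 to 46.1) for all shared footprints of any width, so the members stood above the narrow set and below the whole. Introns held 24.9% of the wide and 29.3% of the narrow, intergenic DNA 25.1% and 23.9%, and exons 5.93% and 6.87%. In the 2309 open regions that held both kinds of footprint, the promoter share was 49.5% (47.5 to 51.4) of wide and 48.5% of narrow ones. All intervals here are exact Clopper-Pearson intervals that cover counting error only. With 2 libraries, an exact sign-flip permutation test cannot give a two-sided p below 0.5, so no difference here reaches 0.05, and each is given with its value in each library or its counting interval. The promoter difference between wide and narrow turned round, to 71.5% of wide against 81.6% of narrow, in a comparison added after the data were seen, which kept footprints in peaks whose signal ranked at percentile 80 or above among the peaks of their library, in both libraries.

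Within promoters, wide shared footprints sat just upstream of the start site. Their centres had a median position of -49 bp (quartiles -110 and -6.75), and 78.8% (77.5 to 80.2) lay upstream. For narrow ones the median was -28 bp (quartiles -110 and 32), and 62.7% (61.6 to 63.8) lay upstream. The 100 bp before the start site held 51.4% of promoter members and 35.2% of narrow promoter footprints, while the 100 bp after it held 14.5% and 24.6%.

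**Figure D1:**
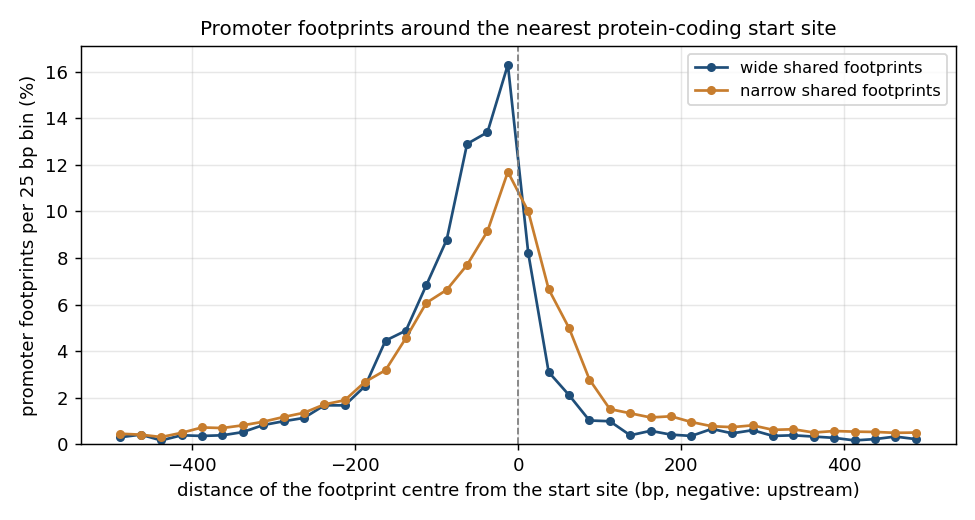
Share of promoter footprints per 25 bp bin (vertical axis, %) against the distance of the footprint centre from the nearest protein-coding start site (horizontal axis, bp), for 3644 wide and 7763 narrow shared footprints. The wide ones gather in the 100 bp upstream (51.4% against 35.2%) and thin out faster after the start site.

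The 50 bp window around each footprint centre was searched on both strands for 42 motifs. CTCF stood far above the others: 2282 members held its 14-letter motif with up to 1 mismatch, 27.6% (26.6 to 28.6), against 1.94% (1.76 to 2.15) of narrow shared footprints and 9.61% of all shared footprints of any width. In all wide entries of each library alone the share was 22.8% (replicate 1) and 24.4% (replicate 2), against 3.64% and 1.40% of narrow entries. In percentage points the difference was larger outside promoters, where 44.8% (43.3 to 46.2) of members and 2.98% (2.68 to 3.31) of narrow footprints held it; introns (45.4%) and intergenic DNA (45.1%) did not differ beyond their intervals. In promoters the shares were 5.87% and 0.386%. With an exact match the shares were 11.4% of members and 0.412% of narrow footprints, and with up to 2 mismatches the shares rose to 38.3% and 5.49%.

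Of the 42 motifs, 11 were held by a larger share of wide than of narrow windows with intervals apart, 7 by a smaller share, and 24 had overlapping intervals. The rule for naming motifs took 11: those in 20 or more members at 1.5 times the narrow share or more. Together they were present in 45.7% of members and 9.83% of narrow footprints. With CA repeats left out of the 42, 35.7% of members held none of them.

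Among promoter factors, the GC box GGGGCGGGG, read by SP and KLF proteins, was in 605 members, 7.32% against 2.10% of narrow (5.07% of all shared). In promoters it reached 14.8% (13.7 to 16) against 4.02% (3.59 to 4.48). NRF1, a regulator of nuclear genes for mitochondria, was in 368 members, 4.45% against 1.19% (2.95% of all shared), and 331 of these were in promoters. The CRE TGACGTCA, the site of CREB and ATF factors, was in 165 members, 2% against 0.324% (0.839% of all shared). The ETS site CCGGAAGT was in 117 members, 1.42% against 0.885% (1.10% of all shared), and this difference closed in peaks at percentile 80 or above, at 2.22% in both sets. RFX sites, an inverted repeat, were in 29 members, 0.351% against 0.0514% (0.216% of all shared). The palindrome CTCGCGAG, linked to the proteins Kaiso and BANP, was in 40 members, 0.484% against 0.129% (0.300% of all shared), all 40 of them in promoters. In the 2309 open regions that held both kinds of footprint this difference narrowed to 0.272% against 0.210%. EGR sites, GCGTGGGCG, were in 26 members, 0.315% against 0.149% (0.230% of all shared), with intervals that met. Their shares were 0.145% and 0.118% in 30 bp windows, and 0.311% and 0.210% in the open regions with both kinds. For each of the 11 named motifs, the share in all wide entries exceeded that in all narrow entries in both replicates. The wide entries include those behind the members (8267 of 11895 in replicate 1, 8265 of 21717 in replicate 2). The motifs were named from these members, so the shares per library are a description and no independent support. NFY boxes, CCAAT followed by C or G and then by A or G, missed the naming rule but were also more frequent, at 5.28% (4.80 to 5.78) against 3.62% (3.36 to 3.89).

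The printed promoter members show these sites in single footprints. The GC box member at Nup107, a nuclear pore gene, was 33 bp wide in replicate 1 and 34 bp in replicate 2, in a peak of value 25.9 and 15.3. The CRE member at Gtf3c1, a TFIIIC subunit gene, was 40 and 39 bp wide, with peak values of 20.7 and 10.1. The NRF1 member at Nup50 was 28 and 32 bp wide, with 20 and 13.3. Widths in the 2 libraries thus stood within 4 bp of each other at these 3 sites.

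NF1 and REST have long motifs too, and most members that held one lay outside promoters. The full NF1 site, TTGGC and GCCAA 5 bases apart with up to 1 mismatch, was in 129 members, 1.56% against 0.437% of narrow (1.03% of all shared). Outside promoters it was in 95 members, 2.06% (1.67 to 2.51) against 0.694% (0.551 to 0.862), and in promoters in 34, 0.933% (0.647 to 1.30) against 0.0515% (0.0140 to 0.132), so the ratio of wide to narrow was 2.96 outside promoters and 18.1 within them, there over 4 narrow footprints. A single arm of the site, TTGGCA, went the other way, at 4.40% (3.97 to 4.87) against 5.45% (5.14 to 5.78). For REST, the repressor of neuronal genes outside the nervous system, up to 3 mismatches were allowed. Its motif was in 23 members, 0.278% against 0.0978% (0.152% of all shared), 18 of them outside promoters. With exact matches the shares of members and narrow footprints were 0.0121% and 0% for REST, and 0.0726% and 0% for the full NF1 site. The strongest REST member by peak signal lay at the start site of Vgf, a neuropeptide gene, at -11 bp. The printed NF1 member, 17836 bp from the start site of Tfap4, was 36 and 35 bp wide in replicates 1 and 2, in a peak of value 21.8 and 13.4. The printed REST member in Xkr6, a match with 3 mismatches, was 29 and 30 bp wide, in a weaker peak of 4.50 and 4.87. The E-box CAGGTG was in 472 members, 5.71% against 3.02% (3.99% of all shared), but 323 of these also held the CTCF motif, whose letters allow CAGGTG within it. Without CTCF windows the shares were 2.49% (2.11 to 2.92) and 2.81% (2.58 to 3.06).

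Muscle-type sites were no more frequent in wide footprints. The E-box CAGCTG, bound by MyoD and myogenin, was in 327 members, 3.96% (3.55 to 4.40) against 6.44% (6.10 to 6.80), with 4.20% against 6.16% in replicate 1 and 4.06% against 5.54% in replicate 2. In the 2309 open regions that held both kinds of footprint this difference turned round, at 3.62% against 3.47%. AP-1 sites, TGAGTCA, were in 51 members, 0.617% against 1.67%. MEF2 sites were in 4 members and 29 narrow footprints, 0.0484% and 0.149%, with intervals that overlapped.

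**Figure D2:**
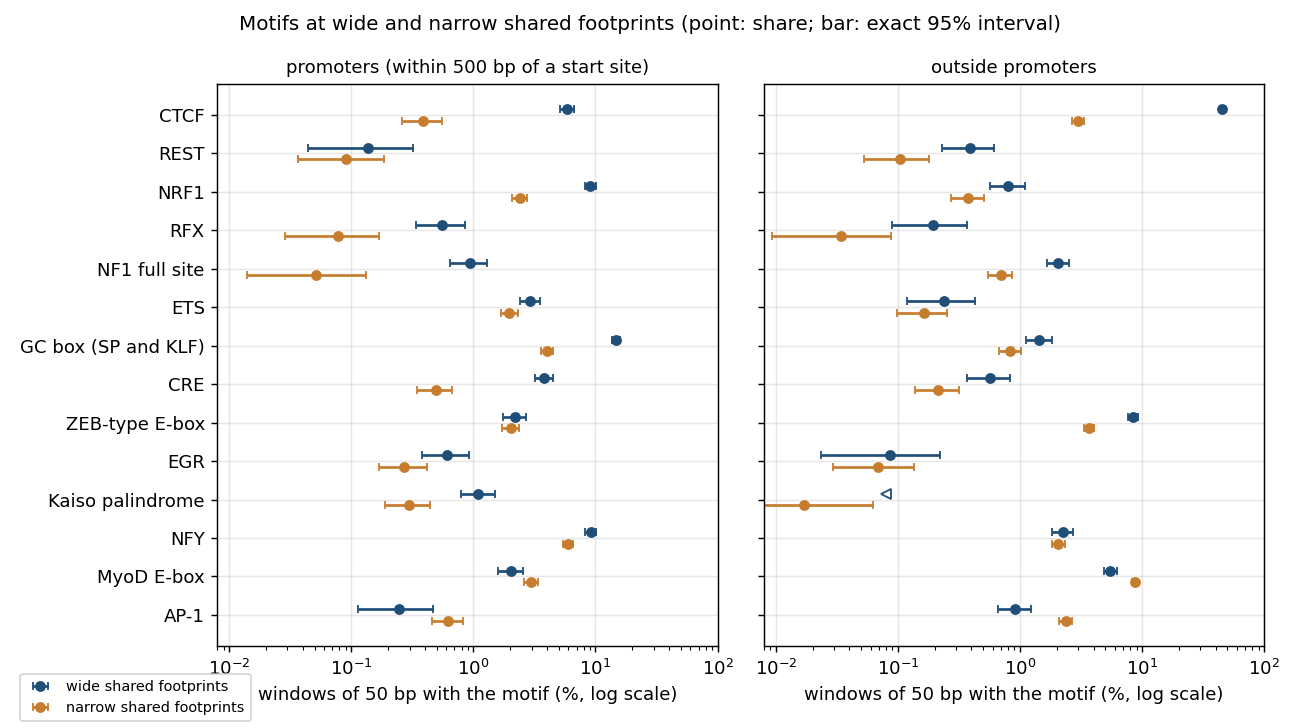
Share of 50 bp windows that held each motif (horizontal axis, %, log scale) in wide (blue) and narrow (orange) shared footprints, in promoters (left) and outside them (right); points are shares, bars exact 95% intervals, and the open triangle marks the upper limit where no window held the motif; the ZEB-type E-box is CAGGTG. CTCF stands at 44.8% against 2.98% outside promoters, and the GC box at 14.8% against 4.02% in promoters, while MyoD and AP-1 sites lie to the left for wide footprints.

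A count of 8-base words, which needs no motif list, returned CTCF and CRE pieces but no GC box among its leading words. Of the 10 words with the highest ratio of wide to narrow windows, CAGGGGGC led, in 674 members (8.15%) and 143 narrow windows (0.736%), followed by CCCCCTAG in 179 (2.17%) and 39 (0.201%). GGGTTCGA, in 40 members and 9 narrow windows, is a piece of the inner promoter of tRNA genes described below. In promoter windows with no CTCF match at up to 2 mismatches, ACGTCATC led, in 48 members and 4 narrow windows; it is a CRE with its next bases. Promoter windows more often held 2 or more different motifs from the promoter group: 3.79% (3.19 to 4.46) of members and 0.386% (0.261 to 0.551) of narrow ones. Among members the share was 1.89% (0.912 to 3.46) at 25 to 29 bp and 6.03% (4.13 to 8.45) at 45 bp or wider.

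The share of footprints with a CTCF motif did not simply grow with width: it had 2 maxima in each library, in bins 15 bp apart. In replicate 1 it was 30.4% at 28 to 30 bp, 14.5% at 34 to 36 bp and 25.5% at 43 to 45 bp. In replicate 2 it was 31.8% at 31 to 33 bp, 16.4% at 37 to 39 bp and 41.8% at 46 to 48 bp. The share of entries in promoters ran opposite to it, at 37.1%, 55.3% and 48.6% in the same bins of replicate 1 and 40.3%, 52% and 30.7% in replicate 2.

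**Figure D3:**
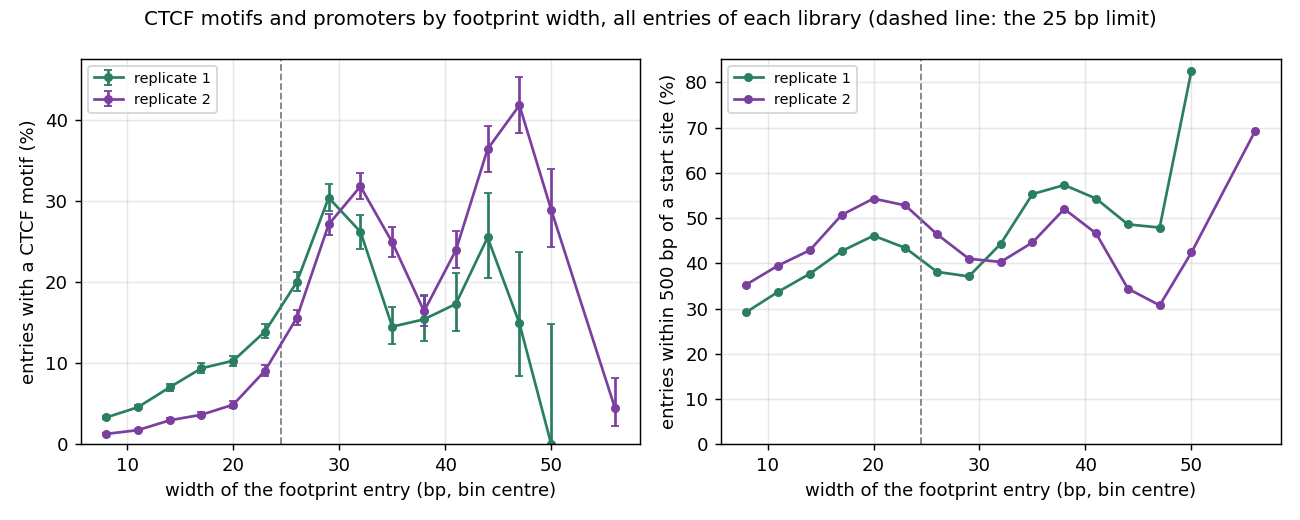
Share of all footprint entries with a CTCF motif (left, %, bars are exact 95% intervals) and within 500 bp of a start site (right, %) against entry width (bp, centre of each bin of 20 or more entries), for replicate 1 (green) and replicate 2 (purple). Both libraries show CTCF maxima near 30 bp (30.4% and 31.8%) and near 45 bp (25.5% and 41.8%), with promoters more frequent between them.

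The second maximum came from the 5′ side of the motif. With every CTCF member turned to its motif's strand, the 3′ edge lay a median of 9 bases (replicate 1) and 10 bases (replicate 2) past the motif, in 1 mode. The 5′ edge had 2 modes: 549 members of replicate 1 and 447 of replicate 2 ended 5 bases before the motif, and a second mode peaked at 21 bases in replicate 1 (71 members) and 22 in replicate 2 (150 members). Taking 10 bases or fewer as compact and 15 or more as extended, limits set after these distances had been seen, 1502 members were compact in both libraries, 289 extended in both, 345 compact in replicate 1 and extended in replicate 2, and 26 the reverse, and the rest fell between the limits in at least 1 library. The median width was 32 bp for sites compact in both and 45 bp for those extended in both.

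Extended sites carried a second sequence. Between 17 and 9 bases before the motif the extended sites preferred TGCANTNCC, with 5.43 bits of information over these positions against 0.219 bits in the compact ones. The motif itself held 18.3 and 19.4 bits. Base preference reached 81.3% for G at position -16, 81.3% for T at -12 and 81.3% for C at -10, against 31.3%, 34% and 34.5% in compact sites. At least 5 of the 7 fixed letters were present in 75.8% (70.4 to 80.6) of the 289 extended sites, 4.33% (3.36 to 5.48) of the 1502 compact ones, 42% of the 345 that were extended in replicate 2 alone, and 10.6% of 378 narrow shared footprints with a CTCF motif. Read in each library by itself, the shares were 73.3% of extended and 11.5% of compact sites in replicate 1, and 57.9% and 5.32% in replicate 2. The word was read off the same sites, so these shares describe them and are no independent test. Turned round, the share of CTCF members extended in both libraries was 2.06% with 0 letters matched, 3.06% with 3, 36.9% with 5 and 69.6% with all 7. The printed pair shows the contrast: the compact site at Copg1 was 29 and 25 bp wide in replicates 1 and 2, and the extended site in Vps37c, with 6 of 7 module letters, 44 and 48 bp. CTCF is known to touch such an upstream module with its outer zinc fingers. Compact sites had a slight preference on the other side, 0.323 bits at position 18 against 0.0732 bits in extended sites. Extended and compact sites were alike in place (10% and 8.79% in promoters), and exact matches to the motif were fewer in the extended ones, at 30.8% against 45.6%.

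**Figure D4:**
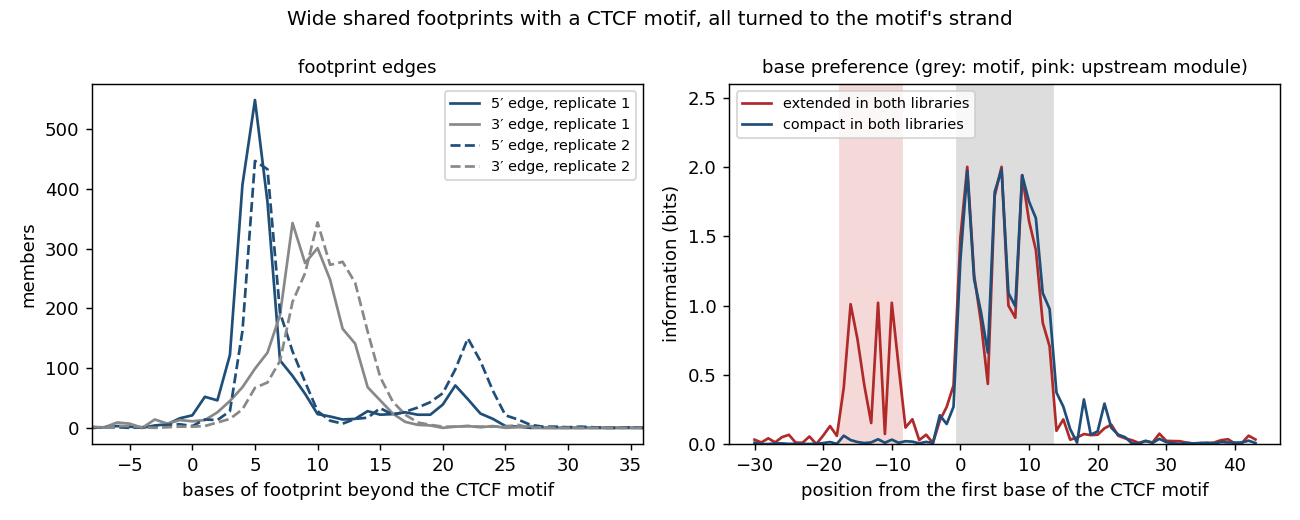
Left, number of CTCF members (vertical axis) by how many bases the footprint reaches beyond the motif (horizontal axis), at the 5′ edge (blue) and 3′ edge (grey) in replicate 1 (solid) and replicate 2 (dashed). Right, information per position (bits) against position from the first base of the motif for 289 extended and 1502 compact sites. The 5′ edge has a second mode at 21 to 22 bases, and in the stretch from -17 to -9 the extended sites hold 5.43 bits against 0.219 in the compact ones.

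For the NF1 and NRF1 sites, the distances from the match to the 2 footprint edges had similar medians. The footprint edges stood a median of 5 and 6 bases from the NF1 site in both replicates, and 9 and 8 bases (replicate 1) or 11 and 9 bases (replicate 2) from the NRF1 site. For NRF1 the quartiles in replicate 1 were 4 and 15 bases on the left and 4.75 and 15 on the right. The medians thus do not place each match in the middle of its footprint. The match lay wholly inside the replicate 1 entry for 95.9% of CTCF, 97% of CRE, 94.6% of NF1 and 91.3% of NRF1 members. For the other named motifs this share was 91.3% (REST), 88.1% (GC box), 82.5% (CTCGCGAG), 82.4% (CAGGTG), 77.8% (ETS), 75.9% (RFX) and 73.1% (EGR).

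A further group, named after the 8-base words had been seen, lay at tRNA genes. Wide shared footprints marked 2 places there: 72 members were centred upstream, beside 69 genes, and 67 members were centred in the 3′ part of 67 genes, of 403 tRNA genes in the RefSeq annotation. The upstream ones ran from a median of 50 to 10 bp before the gene and were 42 bp wide. The inner ones started a median of 39 bp into the gene and ended 2 bp past its end, covering the stretch that holds the B box, the site of TFIIIC. The sequence GGTTCGA of the B box was in 61 member windows, 0.738% against 0.134% of narrow windows (0.263% of all shared), and 58 of the 61 lay in a tRNA gene. At 27 genes both footprints were found. At some of them the upstream footprint ran into the gene, farthest at n-TRtcg5, where it covered the first 12 bp. Counted from 0 at the gene's first base, positions 13 to 29 were covered by no member at any tRNA gene.

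Counts in each library alone include the entries behind the members, so they describe the pattern and are no independent support. Of all wide entries, 83 (0.698%) in replicate 1 and 113 (0.520%) in replicate 2 were centred upstream, against 134 (0.129%) and 144 (0.0899%) of all narrow entries. In the 3′ part there were 79 (0.664%) and 108 (0.497%) wide entries, against 71 (0.0681%) and 61 (0.0381%) narrow ones. Among 138 tRNA genes inside a peak in both libraries, 71 (51.4%, interval 42.8 to 60) overlapped a wide and 25 (18.1%, 12.1 to 25.6) a narrow shared footprint. At n-TStga3, a serine tRNA gene printed above (chr10:63429476-63429557, minus strand), the upstream footprint ran from 53 to 11 bp before the gene and the inner one from 39 to 72 bp into it, in a peak of value 11.7 in replicate 1 and 16.5 in replicate 2. Copies of tRNA genes are alike: 3 of the 67 inner members, but 49 of the 72 upstream ones, were made wholly of 36-base words that occur once in the genome. How reads that match several copies were placed was not tested.

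**Figure D5:**
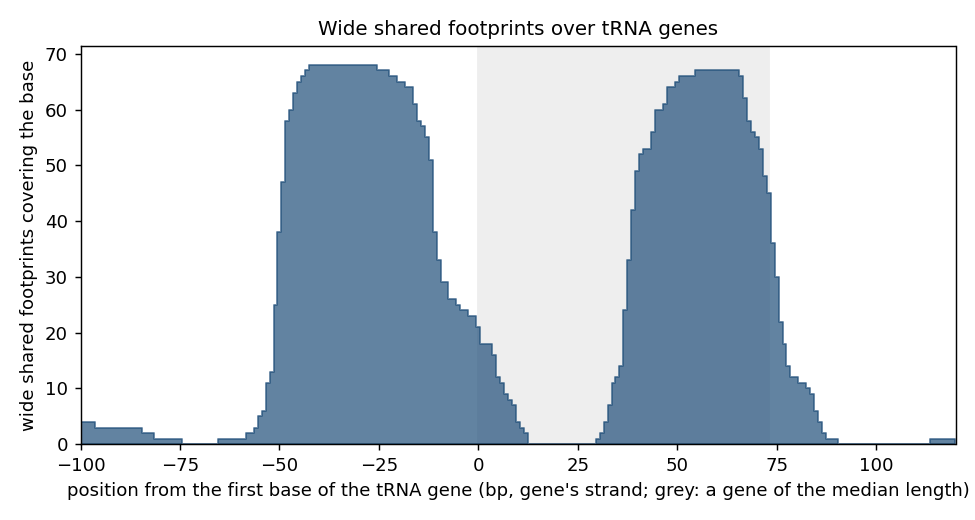
Number of wide shared footprints covering each base (vertical axis) by position from the first base of the tRNA gene on the gene's strand (horizontal axis, bp; grey shows a gene of the median length, 73 bp). Up to 68 members cover the stretch upstream and 67 the 3′ part. Coverage falls from 21 members at the first base of the gene (position 0) to 2 at position 12, and no member covers positions 13 to 29.

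Wide windows had a median GC content of 62% against 60% for narrow ones, and a mean of 3.35 against 2.73 CpG. In promoters the medians were 70% and 66%. Soft-masked repeats made up most of the footprint in 5.32% (4.85 to 5.83) of members and 6.32% (5.98 to 6.67) of narrow ones. All 36-base words were unique for 96.6% of members and 97.7% of narrow footprints.

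Members lay in strong peaks. The shorter of the deposited peak lists covered the centre of 95.6% of members in replicate 1 and 94.1% in replicate 2, against 78.9% and 70.5% of narrow footprints. The median percentile of that peak's signal among all peaks of its library was 84.1 in replicate 1 and 86.1 in replicate 2 for members, and 68.1 and 71.5 for narrow ones. Motif groups differed: the median of the lower percentile was 66.4 for CTCF members and 59.8 for REST, but 93.9 for NRF1, 93.4 for GC box and 91.7 for CRE members. CTCF motifs were in 53.7% (50.3 to 57.2) of members in peaks under percentile 50 and in 11.2% (10.2 to 12.2) of those at percentile 80 or above. Most open regions with a member held 1 (89.2% of 7264), and the most was 4. The depth of the libraries and the scaling of the peak values are unknown, so peak values are compared only within a library.

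Of 21851 protein-coding genes, 3236 (14.8%) had a wide shared footprint within 500 bp of a start site and 6003 (27.5%) a narrow one. Counting the whole gene and up to 10 kb from it, the shares were 31.9% and 48.6%. Genes of constant cell functions had shares above the background for both kinds of footprint, but the narrow interval for housekeeping genes held the background. Wide footprints were at the start sites of 10 of 14 housekeeping genes (71.4%, 41.9 to 91.6), 24 of 79 cytosolic ribosomal protein genes (30.4%, 20.5 to 41.8), 12 of 39 proteasome genes (30.8%, 17.0 to 47.6) and 19 of 59 respiratory chain genes (32.2%, 20.6 to 45.6). Narrow ones, with a background of 27.5%, were at 50%, 55.7%, 43.6% and 42.4% of the same 4 lists. The wide shares moved with the choice of members. With a minimum width of 30 bp, which left 1756 genes with a member at a start site (8.04% of all genes), they were 21.4%, 19%, 15.4% and 22%. Without replicate 1, which gave 6649 such genes (30.4% of all genes), they were 85.7%, 67.1%, 59% and 61%. Examples were Rplp0 (40 bp wide, peak values 16.2 and 16.3 in replicates 1 and 2), Polr2a, the largest subunit of RNA polymerase II (32 bp, 11.8 and 9.36), Rpl7a (41 bp, 18.5 and 15.1), Psmb2 with a CRE (33 bp, 12.1 and 9.46), and Ndufa8 (47 bp, 13.5 and 9.30) and Ndufs5 (31 bp, 9.51 and 6.26), complex I genes with an NRF1 motif.

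Immediate early genes, which respond to signals within minutes, had a wide footprint at 7 of 13 start sites (53.8%, 25.1 to 80.8) and a narrow one at 6 (46.2%). With a minimum width of 30 bp the wide share was 23.1%, against 8.04% of all genes. Jun had 4 within 500 bp, Egr1 3 and Atf3 2, and the Ier2 member held a CRE. The insulator and cohesin list had 5 of 10 (50%, 18.7 to 81.3), with Smc3, Pds5b, Ctcf and Nipbl among them; the 29 bp member at Pds5b, a cohesin regulator, itself held a CTCF motif. Narrow footprints were at 9 of these 10 genes (90%), and the wide share was 20% with a minimum width of 30 bp, against 8.04% of all genes. Glycolysis and glycogen genes had 5 of 13 (38.5%, 13.9 to 68.4). They included Gys1, muscle glycogen synthase, with 3 members, and Ldha, lactate dehydrogenase, with a CRE in a 41 bp member. The Gys1 member in the strongest peak, 69 bp wide, lay in the gene body of Ruvbl2, at -47 bp from the Ruvbl2 start site. It is the same footprint as the Ruvbl2 member named below. Oxidative metabolism genes had 5 of 14 (35.7%, 12.8 to 64.9), such as Esrra, a nuclear receptor for mitochondrial genes, and Cs, citrate synthase. Circadian genes had 4 of 17 (23.5%, 6.81 to 49.9): Tef, Per1, Nr1d2 and Cry2. The intervals of the glycolysis, oxidative metabolism and circadian lists held the 14.8% of all genes. Narrow footprints were at 38.5%, 50% and 64.7% of these lists in that order, against 27.5% of all genes.

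Muscle fibre genes were near or below the background of 14.8% at their start sites, with intervals that hold it. At the start site there were members for 1 of 13 fast-fibre genes (Mylpf, fast regulatory light chain, 40 bp), 0 of 11 slow-fibre genes, 3 of 20 shared sarcomere genes (Ckm, Cryab and Des), 1 of 13 excitation-contraction genes (Jph1) and 1 of 18 muscle regulators (Mef2d); the interval for 1 of 13 is 0.195 to 36%. Over the gene and 10 kb either side the order changed. A member was found for 8 of 13 excitation-contraction genes (61.5%, 31.6 to 86.1) and 9 of 20 shared sarcomere genes (45%, 23.1 to 68.5), against 31.9% of all genes. The counts were 3 of 13 fast-fibre (23.1%), 3 of 11 slow-fibre (27.3%) and 5 of 18 muscle regulator genes (27.8%). The intervals of all these lists held 31.9%. Narrow shared footprints over the same span were at 69.2%, 70%, 61.5%, 54.5% and 88.9% of these lists in the same order, against 48.6% of all genes. At the start site, the same 18 muscle regulators had a narrow shared footprint in 10 cases (55.6%, 30.8 to 78.5), against 5.56% (0.141 to 27.3) for wide ones. The Ckm member, at the promoter of muscle creatine kinase, was 27 bp wide with peak values of 6.45 and 3.37. Satellite cell genes had 2 of 12 (Hey1 and Ncam1) and posterior Hox genes 2 of 12 (Hoxc10 and Hoxa10). None was found at the start sites of the fibroblast and tendon (12), endothelial (10), smooth muscle and pericyte (8), blood cell (12), imprinted (16), liver (10) or neuronal (10) genes; for lists of this size the intervals allow shares up to 20.6% to 36.9%. Away from the start sites, the first 2 genes of each list in alphabetical order that had a member were looked up, each by its member in the strongest peak. The members at Cdh5, Flt1, Myh11, Cd4, Cdkn1c, Apoa2, Grin1 and Rbfox3 held a CTCF motif, that at Fgb a GC box, and those at Col1a1, Scx, Notch3 and Gnas none of the named motifs. The Fgb member lay in the promoter of another protein-coding gene, at -128 bp from that gene's start site.

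Long gene models led the order of genes by members in or up to 10 kb from the gene. Gm20388, a readthrough model of 4434882 bp, held 61. Fgfr2, here a model of 2960900 bp, held 16, and Camta1, of 944555 bp, held 13. Trim7 came next with 10 in 26070 bp and its flanks, and 6 of them lay in tRNA genes. Bahcc1, Jarid2 and Mast3 held 8 each, and Col16a1, 2900026A02Rik and 3110082I17Rik 7 each. Within 500 bp of a start site the most was 5, at Hexim2, an inhibitor of the elongation factor P-TEFb, which had 0 narrow ones.

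The widest members were of 2 kinds. Promoter members of 69 to 75 bp lay at Parp2 (75 bp, -18 bp from the start site), Zmynd8 (70 bp), Ruvbl2 (69 bp), Lsm4 (69 bp) and Wwox (69 bp), all wholly of unique 36-base words. At these 5 the replicate 2 entry was 67 bp or wider and the replicate 1 entry 41 bp or narrower. The other 5 lay away from start sites, 4 of them in sequence that is partly or wholly repeated in the genome. The widest of all, 79 bp on chromosome Y, and a 70 bp member on chromosome 8 near Gm21119 held no unique 36-base word, the 73 bp member on chromosome 4 was 100% soft-masked, and the 77 bp member in an intron of Il31ra was 49.4% soft-masked and in no peak of the shorter list in either library. The last lay in an intron of Kpna1 (75 bp, 96.4% of its 36-base words unique), also outside these peaks. The replicate 1 and 2 entries were 42 and 50 bp wide at Il31ra and 37 and 46 bp at Kpna1. The widths of these members thus came from merging, and neither library had a single entry as wide. The entries were 32 and 79 bp on chromosome Y, 40 and 70 bp near Gm21119, and 73 and 57 bp on chromosome 4.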

How the data were processed

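DNase-seq of gastrocnemius nuclei gave 2 libraries, labelled as 2 biological replicates from separate male B6CASTF1/J mice, though both carry 1 donor identifier. The authors deposited footprint and peak lists called per library on mm10, per the file headers and labels; which aligner, peak caller and footprint caller made them was not given in the sources used here. The deposited footprint score is 0.01 on every line, so footprints were used by position and width. The deposited peak signal has an unstated scaling, and the depth is unknown, so it was ranked within each library.

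Wide and narrow footprints were paired and merged, assigned to GENCODE release 21 start sites, exons and genes, and searched for motifs in 50 bp windows of the mm10 sequence; tRNA genes came from RefSeq. CTCF, NRF1, RFX, full NF1 and HNF1 motifs were allowed 1 mismatch, REST, ZNF143 and p53 motifs 3, and all others 0. The classes are promoter (500 bp), exon, intron and intergenic, in that order. Promoters, motif letters and the 23 gene lists were chosen with earlier results of these data known, as were the members. Named were the 10 widest members, motifs in 20 or more members at 1.5 times the narrow share, the 10 genes with most members, and per list up to 4 genes by peak percentile, of which the text gives a selection. Printed sequences are the members of those motifs with the highest peak percentile outside exons, chosen among the first 2 per motif. Intervals are exact 95% (SciPy 1.17.1). Python 3.11.15 and NumPy 2.4.6 were used. On simulated data all 200 planted sites of each of the 42 motifs were found, and merged regions equalled those of bedtools 2.31.1. Rates of false discovery per base and the libraries' reads were not analysed here. Some members that the naming rules selected are not reported here.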

Additional observations from a re-analysis of the deposited data

How the results depend on the processing

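No paired analysis was possible because both libraries belong to 1 group. Of 204 recomputed values, 2 changed direction. The promoter share of members became 71.5%, below the 81.6% of narrow footprints, in peaks at percentile 80 or above, and the MyoD E-box share became 3.62%, above the 3.47% of narrow footprints, in the same open regions; the cause was not tested. With a minimum width of 20 bp there were 16324 members, a promoter share of 48.1%, a CTCF share of 21.4% and 5739 genes with a member at a start site. With 30 bp these were 3626, 50%, 25.2% and 1756, and the median peak percentile was 86.3. Without replicate 1 or 2, the number of footprints ranged from 11895 to 21717, the promoter share from 42.2% to 43.5%, the CTCF share from 22.8% to 24.4% and the genes from 4158 to 6649, since no partner was then required. In the same open regions both kinds share place and peak by construction. There the promoter share was 49.5% (47.5 to 51.4) against 48.5% of narrow ones. The CTCF share was 23.6% against 0.455%, and the median peak percentile 84.3 against 82.6. A promoter of 1000 bp gave 47.1% and start sites of all transcripts 50%. The CTCF share was 26.5% in 30 bp windows, 11.4% with exact matches, 38.3% with up to 2 mismatches and 11.2% in peaks at percentile 80 or above. The median GC was 66.7% in 30 bp windows, 60% in 100 bp windows and 68% in peaks at percentile 80 or above. Longer peak lists gave a median peak percentile of 88.7. The last mismatch setting and the percentile 80 setting were chosen after seeing the data. With no read depth, a footprint missing from 1 library cannot be told apart from one too thinly cut to be called.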
